A study of Mus musculus with 2 samples.

Results

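The 10 chemokine genes Cxcl12, Cxcl1, Cxcl9, Cxcl10, Cxcl13, Cxcl16, Ccl2, Ccl7, Ccl11 and Ccl19 were followed in pancreatic islets of mice with a phosphorylation-resistant retinoblastoma protein. They were found by gene name among the 34844 gene names of a mouse expression array, and every probe that carried 1 of the names was kept, 15 of 55681 probes. The islets came from RbΔK7 knock-in mice, whose Rb protein resists phosphorylation, and from control mice. Each of 2 arrays carried 1 RbΔK7 sample (Cy5 dye) and 1 control sample (Cy3 dye), and the series design states that the samples were grown and harvested independently. The arrays shared 1 slide, and RbΔK7 carried Cy5 in both pairs, so genotype and dye cannot be told apart. The labels give no strain, age or sex of the mice, and do not say in which cells the knock-in allele is active. The preparations were islets picked by hand after collagenase digestion of the pancreas, so they can hold blood vessel, connective tissue and immune cells beside endocrine cells.

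Chemokines are small secreted proteins that bind receptors on leukocytes and other cells and direct their movement. The CXC and CC families are named for the spacing of their first cysteines. Some are made steadily by connective tissue cells, such as Cxcl12, while others, such as Cxcl9, Cxcl10, Cxcl1 and Ccl2, are induced by interferons or by cytokines that act through NF-kappaB, and islet cells are known to make several of them during inflammation.

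All 8 beta cell marker genes were tested, and G6pc2, a beta cell phosphatase gene, had log2 levels of 13.13 and 13.50 in RbΔK7 islets, against 13.11 and 13.44 in control islets. It was the only 1 of the 8 with the same sign on both arrays, and the list had median ratios of -0.36 and 0.25, with Ins1, an insulin gene named after its values were seen, at -0.15 and 1.25. The 9 acinar marker genes were bright as well, and the RbΔK7 sample of replicate 2 stood apart. Their median log2 level was 16.93 and 11.61 in the RbΔK7 samples, against 16.27 and 17.68 in the control samples, and Ctrc, an acinar protease gene, had log2 ratios of -2.14 and -5.42. Of the gene spots, 41.0% and 48.2% were well above background in the RbΔK7 channel, against 37.0% and 38.1% in the control channel. Saturation was found in 0 gene spots, and the precision is limited by there being 2 arrays.

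The probes of Cxcl12 and Ccl19 carry most of what follows, so their sequences and positions are given here. Each probe is 60 bases long, and the last 30 bases are given 5′ to 3′, with the polyadenylation signal AATAAA in capitals where it occurs. Cxcl12 has a probe that the files describe as transcript variant 3 (A_51_P172502, probe 1, chr6:117131227-117131286, plus strand, mm9) and one that they describe as transcript variant 1 (A_55_P1966204, probe 2, chr6:117125026-117125085, plus strand). The accessions of probe 1 also list another RefSeq transcript, so neither its level nor its ratio belongs to variant 3 alone. Probe 2 holds the polyadenylation signal and probe 1 does not. The files place the 3 probes of Ccl19 on the plus strand of chromosome 4 (mm9), A_55_P2099742 (probe 1) at chr4:42250105-42250164, A_55_P2127991 (probe 2) at chr4:42248526-42248585 and A_55_P2127995 (probe 3) at chr4:42248630-42248689. Whether these positions fall in exons or untranslated regions was not analysed here.
Cxcl12 probe 1: tgctttcttattcttatttttaatatatga
Cxcl12 probe 2: tatttacctgaAATAAAatctactagttgt
Ccl19 probe 1: catccgaagactgaagacgtcttctgccaa
Ccl19 probe 2: ttcacgccacaggaggacatctgagcgatt
Ccl19 probe 3: cactctctgtggcctgcctcagattatctg

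The start regions of 3 genes are printed because Cxcl12 rose, because 2 of the Ccl19 probes lie inside the Ccl19 window, and because Ccl19 and Cxcl10 hold the same interferon-type motif. Each window runs from 250 bases before to 50 bases after a gene's start and comes from RefSeq (GRCm38.p6); the table used here held a window for 6 of the 10 genes. Both strands were searched for GAAANNGAAA (interferon-stimulated response element), GGGNNNTTCC (NF-kappaB site), TATAAA (the box bound by TBP), GGGCGG (GC box) and TTTNGCGC (E2F site), and matches are in capitals. The Cxcl12 window is chr6:117168285-117168584 on the plus strand, the Cxcl10 window chr5:92348840-92349139 on the minus strand and the Ccl19 window chr4:42756316-42756615 on the minus strand.
Cxcl12: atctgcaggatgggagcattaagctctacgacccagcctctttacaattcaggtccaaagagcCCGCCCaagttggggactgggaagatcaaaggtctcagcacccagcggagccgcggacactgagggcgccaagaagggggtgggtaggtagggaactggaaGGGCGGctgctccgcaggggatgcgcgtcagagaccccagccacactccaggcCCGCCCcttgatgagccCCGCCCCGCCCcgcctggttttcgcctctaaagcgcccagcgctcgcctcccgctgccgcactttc
Cxcl10: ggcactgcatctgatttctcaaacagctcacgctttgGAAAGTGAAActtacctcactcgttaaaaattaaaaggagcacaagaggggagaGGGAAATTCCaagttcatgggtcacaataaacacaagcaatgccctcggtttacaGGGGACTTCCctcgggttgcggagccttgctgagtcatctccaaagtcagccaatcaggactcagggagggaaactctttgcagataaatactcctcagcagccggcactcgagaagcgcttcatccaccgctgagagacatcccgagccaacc
Ccl19: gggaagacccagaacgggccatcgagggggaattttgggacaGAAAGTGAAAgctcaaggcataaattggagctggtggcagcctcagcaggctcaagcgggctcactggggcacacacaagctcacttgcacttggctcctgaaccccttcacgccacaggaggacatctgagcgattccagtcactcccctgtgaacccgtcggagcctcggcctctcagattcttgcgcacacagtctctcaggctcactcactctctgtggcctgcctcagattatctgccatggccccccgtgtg

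Cxcl12 held 5 GC boxes, the last 2 sharing a base, and none of the other motifs. Cxcl10 held GAAANNGAAA from -213 to -204 and NF-kappaB matches from -159 to -150 and from -104 to -95, counted from the start. Ccl19 held GAAANNGAAA from -208 to -199, with the same letters as in Cxcl10 (gaaagtgaaa). Among the windows not printed, Cxcl1 held NF-kappaB matches that overlap on opposite strands from -71 to -61 and another from -89 to -80, and Cxcl9 and Cxcl13 each held a TATAAA. Of the windows of all 27025 genes in the table, 3.49% held GAAANNGAAA, 5.52% the NF-kappaB site, 14.2% TATAAA, 35.9% GGGCGG and 1.38% TTTNGCGC, which was in 0 of the 6 windows of the chemokine genes. A match describes letters and is not evidence of a working site.

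Only probes that were bright enough on both arrays, in the RbΔK7 or the control channel, entered the test (well above background, as the scanner software calls it). These were 9 of the 15 probes, from 6 of the 10 genes. Levels are log2 values of each channel after normalization within and between arrays, and ratios are log2 values of RbΔK7 over control within an array. The test was limma's on the 2 ratios of a probe, with Benjamini-Hochberg adjustment over all 22266 tested probes, and an adjusted p under 0.05 was called. With 2 arrays the variance of a probe rests on 1 residual degree of freedom and 4.90 from the prior over all tested probes, so the p-values draw mostly on the spread of other probes. In whole islets, fewer cells of a type and less RNA per cell cannot be told apart.

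Cxcl12 was the only 1 of the 10 genes with a called probe, and it rose 2.30-fold in RbΔK7 islets on its probe 1. Over all tested probes 0.368% were called higher in RbΔK7 and 0.0135% lower, so 1 of 9 probes rose and 0 of 9 fell, while 8 were not called. At an unadjusted limma p under 0.05 there were 5 of the 9 probes, against 11.4% of all tested probes. On both arrays 8 of the 9 had a ratio above 0, against 32.3% of all tested probes. With median centring in place of loess, where the median of all tested means was itself 0.62, 7 of the 9 means lay above that median, while Cxcl9 and Cxcl10 lay at -0.13 and -0.07 from it. The median of their ratios was 0.37 (replicate 1) and 0.62 (replicate 2), against 0.02 and 0.02 over all tested probes. These counts are descriptions, because 6 of the 9 probes were below background in the control channel on 1 array or both and so were tested by way of the RbΔK7 channel, and because the 9 probes share 6 genes.

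**Figure D1:**
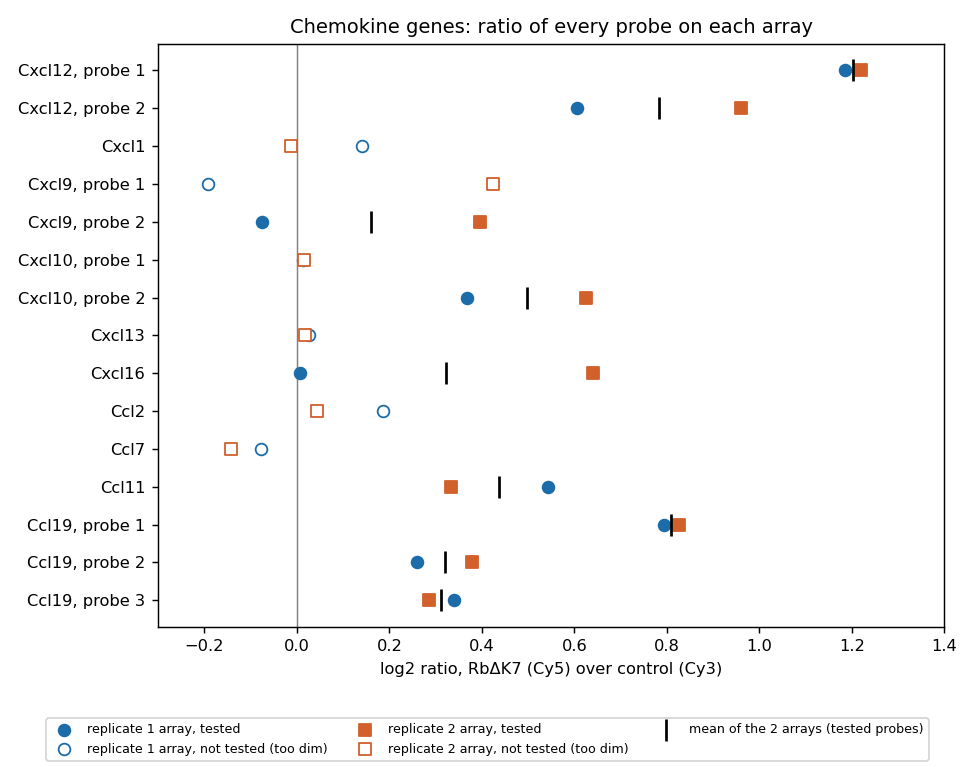
Log2 ratio of RbΔK7 over control (x axis) for each of the 15 probes of the 10 genes, with circles for the replicate 1 array, squares for the replicate 2 array, filled symbols for tested probes and a bar for their mean. Cxcl12 probe 1 lies at 1.19 and 1.22, and of the tested probes only Cxcl9 probe 2 has a ratio below 0.

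Cxcl12 encodes the ligand of the receptor Cxcr4 and is made by stromal and endothelial cells, among others. Its probe 1 had log2 levels of 8.83 and 9.22 in the RbΔK7 samples, against 7.64 and 8.0 in the control samples. Both RbΔK7 samples lay above both control samples, and the genotypes did not overlap. The raw mean signals were 475 and 1160 in RbΔK7, over local backgrounds of 54.0 and 52.0, against 98.1 and 157 in control, over 30.0 and 24.0. All 4 channels were thus well above background. The ratios were 1.19 and 1.22, averaging 1.20 ± 0.025 (SD, n = 2), with an adjusted p of 0.0446 in limma. With Agilent's processed signals, normexp without an offset or the authors' deposited log ratios the mean was 1.45, 1.44 and 1.44, and the probe was not called (limma adjusted p = 0.232, 0.148 and 0.247).

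Probe 2 of Cxcl12 had log2 levels of 7.10 and 7.62 in the RbΔK7 samples, against 6.49 and 6.66 in the control samples. Both control samples were too dim to be called well above background, and the mean difference in channel levels was 1.72-fold. It is an estimate open to dye bias and not a lower bound. The ratios were 0.61 and 0.96 (0.78 ± 0.25 on average, SD, n = 2; adjusted p = 0.136 by limma), above 0 on both arrays but not called.

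**Figure D2:**
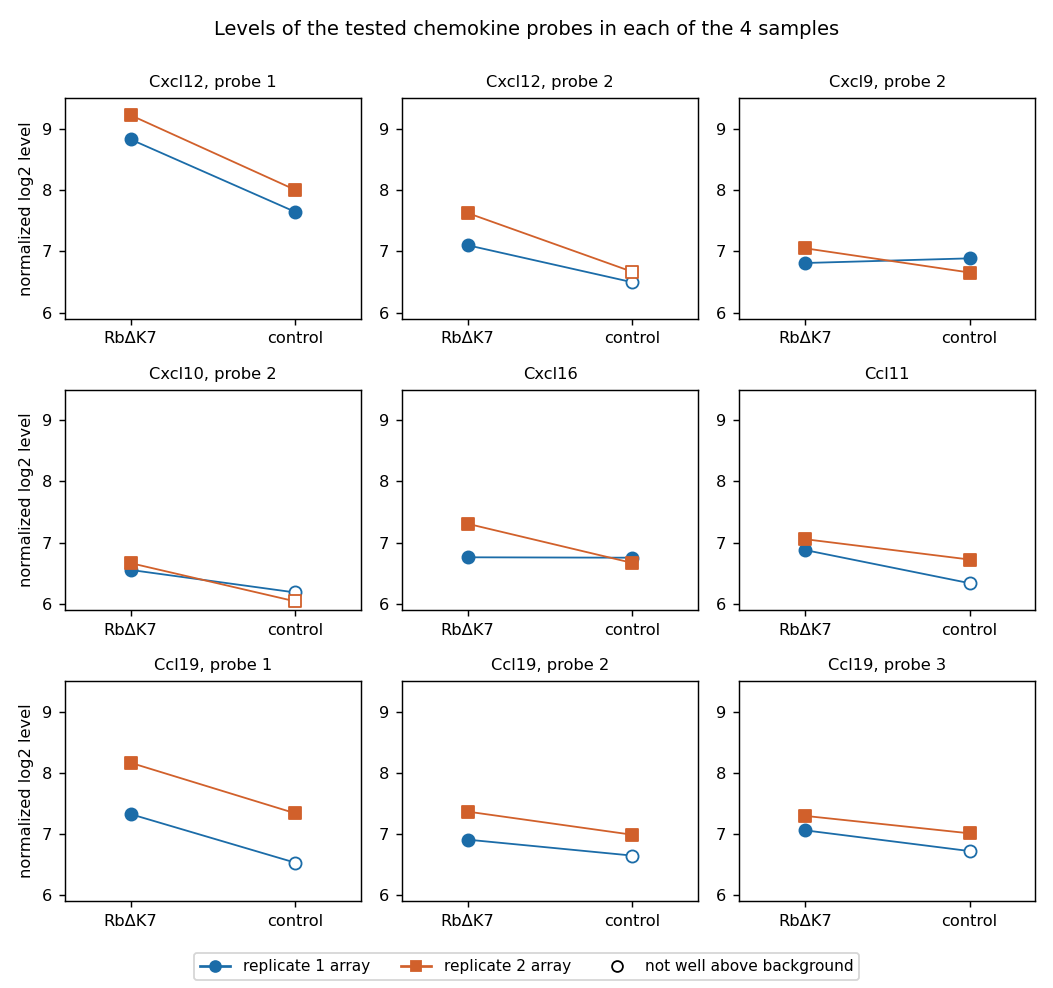
Normalized log2 level (y axis) of each of the 9 tested probes in RbΔK7 (left) and control (right) samples, with a line joining the samples of 1 array and open symbols where a channel was not well above background. For Cxcl12 probe 1 both RbΔK7 samples (8.83 and 9.22) lie above both control samples (7.64 and 8.0), while for Ccl19 probe 1 the control sample of replicate 2 (7.34) lies just above the RbΔK7 sample of replicate 1 (7.33).

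The receptors that bind Cxcl12 are Cxcr4, which signals through G proteins, and the atypical receptor Ackr3, which takes the ligand up (file name Cxcr7). Ackr3 had log2 levels of 7.55 and 8.55 in the RbΔK7 samples, against 6.81 and 7.58 in the control samples. The control sample of replicate 2 lay just above the RbΔK7 sample of replicate 1, and the ratios were 0.73 and 0.98 (0.85 ± 0.17 on average, SD, n = 2; adjusted p = 0.0932 by limma). Cxcr4 was not tested: it was above background only in the RbΔK7 sample of replicate 2. Enzymes that cut Cxcl12 include Mmp2 and Dpp4. Mmp2, a gelatinase gene, had ratios of 1.10 and 0.94 (limma adjusted p = 0.0589), with the control channel below background on the replicate 1 array, and Dpp4, a dipeptidyl peptidase gene, had 0.16 and 0.56 (limma adjusted p = 0.468). Adam10, whose product releases Cxcl16 from the cell surface, had 0.11 and 0.10. None of the 3 tested processing genes of 5 was called.

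Markers of connective tissue moved beside Cxcl12, and their part in its rise was not tested. All 17 stromal marker genes were tested, 8 rose and 0 fell, and all 17 were higher on both arrays, with median ratios of 0.98 and 1.33. Their median log2 level was 7.91 and 8.97 in RbΔK7 samples, against 7.02 and 8.20 in control samples. Over all tested probes 0.368% were called higher and 32.3% were higher on both arrays. The stromal counts use the brightest tested probe of a gene, and the other tested probe of Fbln1 had -0.24 and 0.36. For Col5a1, Lum, Pdgfra, Fbln1, Mfap5, Dpt and Postn the control channel was below background on 1 array or both. The collagen genes Col1a2 and Col1a1 rose by mean ratios of 2.54 ± 0.65 and 2.40 ± 0.37 (SD, n = 2 each; limma adjusted p = 0.0297 and 0.0262). Of the 10 blood endothelial markers, all tested, 1 rose and 9 were higher on both arrays, with median ratios of 0.42 and 0.58. The tenth, the VEGF receptor gene Kdr, named after its values were seen, had -0.28 and -0.88 on its brightest probe (limma adjusted p = 0.321). Its other tested probe had 0.14 and 0.59 (limma adjusted p = 0.476), so the 2 Kdr probes differed in sign. The one that rose was Vwf, the von Willebrand factor gene, on 1 of its 2 probes, with ratios of 1.61 and 1.58 (limma adjusted p = 0.0297). Cldn5, a tight junction gene of endothelium, had ratios of 0.38 and 1.04, with the control channel below background on the replicate 1 array.

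Ccl19 encodes a ligand of Ccr7 that draws T cells and dendritic cells and is made by stroma of lymphoid tissue. Its probe 1 had log2 levels of 7.33 and 8.16 in the RbΔK7 samples, against 6.53 and 7.34 in the control samples. Replicate 2 was higher than replicate 1 in both genotypes, and the control channel was well above background on the replicate 2 array only. The ratios were 0.79 and 0.83, a mean of 0.81 ± 0.023 (SD, n = 2), and the probe was not called (limma adjusted p = 0.0910). With no filter on dim probes or a trended, robust prior it was called (limma adjusted p = 0.0236 and 0.00863). With Agilent's processed signals, normexp without an offset or the authors' deposited log ratios it was not (limma adjusted p = 0.302, 0.183 and 0.322).

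The other Ccl19 probes gave smaller ratios. Probe 2 had log2 levels of 6.91 and 7.37 in the RbΔK7 samples, against 6.65 and 6.99 in the control samples, with ratios of 0.26 and 0.38 (0.32 ± 0.083 on average, SD, n = 2; adjusted p = 0.454 by limma). Probe 3 had levels of 7.06 and 7.30 in the RbΔK7 samples, against 6.72 and 7.01 in the control samples, with ratios of 0.34 and 0.29 (0.31 ± 0.038 on average, SD, n = 2; adjusted p = 0.457 by limma). For both, all ratios were above 0 and neither was called; the genotypes overlapped for probe 2 and did not for probe 3. All 60 bases of probe 2 were found in the Ccl19 window from -131 to -72, before the RefSeq start, and also whole in the window of Gm12407, a gene of chromosome 4. All 60 bases of probe 3 were found from -27 to 33, across the start. RefSeq puts Ccl19 on the minus strand, while the files place these probes on the plus strand of mm9. RefSeq lists the transcribed pseudogenes Ccl19-ps1 and Ccl19-ps2 on the same chromosome, so the signal of the 3 probes may be shared with near-identical copies and is uncertain as a measure of Ccl19 alone.

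Ccr7, the receptor of Ccl19, was above background only in the RbΔK7 sample of replicate 2 and was not tested. Of 6 markers of lymphoid stroma 2 were tested. Pdpn, the podoplanin gene, rose on its only tested probe, with ratios of 1.22 and 1.52 (limma adjusted p = 0.0433). Its control channel was below background on the replicate 1 array. Madcam1, a vascular addressin gene, had 0.30 and 0.10. Tnfsf11, Tnfsf13b, Cr2 and Fcer2a had no tested probe. Of the lymphatic endothelial markers 2 of 4 were tested, Prox1 with ratios of 0.63 and 0.11 and Lyve1 with -0.19 and -0.55, and neither was called. Of the mesothelial markers 1 of 4 was tested and 0 were called.

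Cxcl9 and Cxcl10 encode interferon-induced ligands of Cxcr3, a receptor of activated T cells. The tested probe of Cxcl9 (A_55_P1977038, probe 2, chr5:92752796-92752855, minus strand, mm9) had log2 levels of 6.81 and 7.05 in the RbΔK7 samples, against 6.88 and 6.65 in the control samples. All 4 channels were above background and the genotypes overlapped. The ratios had opposite signs, -0.08 and 0.40 (0.16 ± 0.33 on average, SD, n = 2; adjusted p = 0.784 by limma). Its other probe, A_51_P461665 (probe 1), was below background in all 4 channels and was not tested.

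The tested probe of Cxcl10 (A_55_P2016462, chr5:92775781-92775840, minus strand, mm9) had log2 levels of 6.55 and 6.67 in the RbΔK7 samples, against 6.19 and 6.04 in the control samples. Both RbΔK7 samples lay above both control samples, but both control samples were too dim to be called well above background. With the control samples set to the lowest level called well above background in their channel, the difference was 1.15-fold. It is an estimate open to dye bias and not a lower bound. The ratios were 0.37 and 0.62 (0.50 ± 0.18 on average, SD, n = 2; adjusted p = 0.285 by limma), and the probe was not called. Its other probe, A_55_P2016459, was below background in all 4 channels. Cxcr3 was below background in all 4 channels as well.

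Cxcl16 encodes a membrane-bound chemokine whose receptor is Cxcr6. Its probe (A_52_P99888, chr11:70267780-70267839, minus strand, mm9) had log2 levels of 6.76 and 7.31 in the RbΔK7 samples, against 6.75 and 6.67 in the control samples. The RbΔK7 sample of replicate 2 was the high one and the other 3 samples lay close together, so the difference came from 1 array, with ratios of 0.01 and 0.64 (0.32 ± 0.45 on average, SD, n = 2; adjusted p = 0.591 by limma). Of the Cxcr6 probes, 1 was above background, in the RbΔK7 sample of replicate 2 only.

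Ccl11, eotaxin, is the ligand of Ccr3 on eosinophils. Its probe (A_51_P331752, chr11:81876072-81876131, plus strand, mm9) had log2 levels of 6.88 and 7.06 in the RbΔK7 samples, against 6.34 and 6.72 in the control samples. The genotypes did not overlap, and the control channel was well above background on the replicate 2 array only. The ratios of 0.54 and 0.33 (0.44 ± 0.15 on average, SD, n = 2; adjusted p = 0.324 by limma) were not called, and Ccr3 was below background in all 4 channels.

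For the other 4 genes no probe was tested, so no difference between the genotypes was detectable at this signal. Cxcl1, whose product draws neutrophils through Cxcr2, was below background in all 4 channels, with ratios of 0.14 and -0.01, and Cxcr2 was below background too. Cxcl13, whose product draws B cells through Cxcr5, was above background only in the RbΔK7 sample of replicate 1, and its ratios were 0.03 and 0.02. Ccl7, a monocyte attractant that binds Ccr2, was below background in all 4 channels, with ratios of -0.08 and -0.14.

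Ccl2, the main monocyte attractant acting on Ccr2, was spotted 10 times on each array, which shows the spread of a dim probe. On the replicate 1 array 1 of 10 spots was well above background in the RbΔK7 channel and 0 of 10 in the control channel, and on the replicate 2 array 3 of 10 and 0 of 10. The ratios of single spots ran from 0.01 to 0.42 on the replicate 1 array (median 0.21, SD 0.14) and from -0.24 to 0.49 on the replicate 2 array (median -0.02, SD 0.23). These spots repeat 1 hybridisation and are not replicates of the genotype. Ccr2 was above background only in the RbΔK7 sample of replicate 2, and Cxcr5 in none.

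The levels of the tested probes varied between the pairs as well as between genotypes. In 6 of the 9 the lowest RbΔK7 level lay above the highest control level, which held for 21.9% of all tested probes. For Cxcl16 this was 6.76 against 6.75. For Cxcl12 probe 2, Cxcl10, Ccl11 and Ccl19 probe 3 the control channel was below background on 1 array or both, so they were tested by way of the RbΔK7 channel. In 6 of the 9 the control sample of replicate 2 was higher than that of replicate 1. Both channels were well above background on both arrays for 3 probes, those of Cxcl12 (probe 1), Cxcl9 (probe 2) and Cxcl16. Of these 3, Cxcl12 rose, while Cxcl9 and Cxcl16 had ratios of -0.08 and 0.01 on the replicate 1 array and 0.40 and 0.64 on the replicate 2 array, and were not called.

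Other chemokine ligands were counted beside the 10 genes. Of 27 further ligand genes on the array 9 had a tested probe, 0 were called, and 7 were higher on both arrays, with median ratios of 0.38 and 0.60. At an unadjusted limma p under 0.05 there were 6 of the 9, against 11.4% of all tested probes. Over all tested probes 32.3% were higher on both arrays. Cxcl14, which encodes a chemokine of epithelia and stroma, had ratios of 0.52 and 0.92, and Pf4, the platelet factor 4 gene, had 0.88 and 0.53 (limma adjusted p = 0.172 and 0.164). The myeloid chemokine genes Ccl6 and Ccl9 had 0.38 and 0.74, and 0.65 and 0.43. The control channel was below background on both arrays for Cxcl14 and Ccl6 and on the replicate 1 array for Pf4 and Ccl9. The remaining tested ligands with opposite signs on the arrays, Cxcl11 and Ccl5, were chosen after their values were seen. Cxcl11, an interferon-induced ligand of Cxcr3, had ratios of -0.38 and 0.60 on the probe that stood for it and -0.35 and -0.07 on its other probe. The former probe had log2 levels of 15.72 and 16.76 in the RbΔK7 samples, against 16.10 and 16.16 in the control samples. Whether so bright a signal comes from Cxcl11 was not tested. Ccl5 had -0.11 and 1.82, with a log2 level of 8.31 in the RbΔK7 sample of replicate 2, against 6.88 in the RbΔK7 sample of replicate 1 and 6.99 and 6.49 in the control samples.

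**Figure D3:**
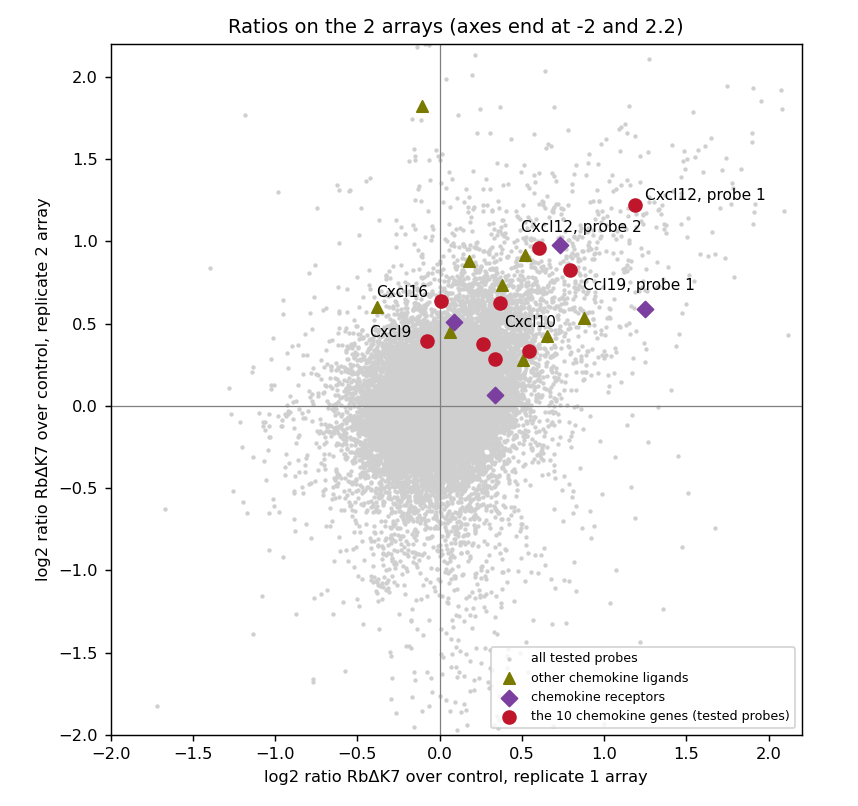
Log2 ratio of RbΔK7 over control on the replicate 1 array (x axis) and the replicate 2 array (y axis) for the 22266 tested probes (grey, those beyond the axes not drawn), with the 9 tested probes of the 10 chemokine genes (circles), 9 other ligands (triangles) and 4 receptors (diamonds). Of the 9 circles 8 lie above 0 on both axes, with Cxcl12 probe 1 farthest out, and the triangle at 1.82 on the y axis is Ccl5.

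Receptors were seldom measurable. Of 18 signalling receptors only Cx3cr1, the receptor of fractalkine, was tested, with ratios of 0.09 and 0.51, and 16 of their 22 probes were below background in all 4 channels. Of 5 atypical receptors, which bind chemokines without G protein signalling, 3 were tested, 0 were called and 3 were higher on both arrays. Ackr1 (file name Darc), found on venular endothelium and red blood cells, had ratios of 1.25 and 0.59 (limma adjusted p = 0.154), with the control channel below background on the replicate 1 array. Ccrl2, which binds chemerin, had 0.34 and 0.07, also with the control channel below background on the replicate 1 array.

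Genes that induce chemokines, or are induced with them, gave mixed ratios. Of 25 such genes 15 were tested, 0 were called, 10 were higher and 2 lower on both arrays, and the medians were 0.19 and 0.20. Over all 22266 tested probes 7203 (32.3%) were higher and 5631 lower on both arrays. The adhesion gene Vcam1 had ratios of 0.84 and 1.02 (limma adjusted p = 0.0722) and the interferon-induced GTPase gene Gbp2 0.58 and 0.84 (limma adjusted p = 0.150), each with the control channel below background on the replicate 1 array. Nfkbiz, which encodes an NF-kappaB cofactor, had -0.46 and -0.51 (limma adjusted p = 0.263), and the TNF receptor gene Tnfrsf1a had 0.15 and 0.74. Tnf, Il1b and Ifng, the cytokine genes best known for inducing chemokines, were below background in all 4 channels.

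Markers of leukocytes, the cells chemokines draw, showed no called gene. Of 13 macrophage and myeloid markers 12 were tested, and 8 had ratios above 0 and 1 below 0 on both arrays. The list medians were 0.15 and 0.41. Of all 22266 tested probes 7203 (32.3%) had ratios above 0 and 5631 below 0 on both arrays. The lysozyme gene Lyz1 had 0.98 and 1.18 (limma adjusted p = 0.0542) and Cd14 0.62 and 1.01 (limma adjusted p = 0.133). The one below 0 on both arrays, named after its value was seen, was the receptor gene Csf1r, with -0.15 and -0.21. Lyz2, the other lysozyme gene of the list, was also named after its values were seen. It had 0.34 and 0.43 (limma adjusted p = 0.370), with the control channel below background on both arrays. Of 7 T cell markers on the array 4 were tested, 1 higher and 2 lower on both arrays, while Cd3d, Cd3g and Cd8a had no tested probe. Cd3e had -0.39 and -0.53, with log2 levels of 9.73 and 9.29 in the RbΔK7 samples, against 10.12 and 9.82 in the control samples. Whether so bright a signal comes from Cd3e was not tested. Cd2 had 0.34 and 0.31, with the control channel below background on both arrays. Of 7 B cell markers 2 were tested, with Cd79a at -0.01 and -0.09, and Ms4a1 and Pax5 had none. Of 6 neutrophil markers 3 were tested, with Elane at -0.03 and -0.23, and S100a8, Ly6g and Mpo had none.

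Of the remaining lists, 7 of 8 duct markers were tested, 2 rose and 5 were higher on both arrays, with median ratios of 0.53 and 0.40. Over all tested probes 0.368% were called higher and 32.3% were higher on both arrays. Tspan8 rose with ratios of 1.41 and 1.59 and Spp1, the osteopontin gene, with 1.77 and 1.23 (limma adjusted p = 0.0297 and 0.0448). Krt7 and Muc1, named after their values were seen, had opposite signs on the arrays, with -0.17 and 0.03, and 0.27 and -0.04. None of the 9 acinar markers was called, with median ratios of 0.43 and -5.09, and none of the 8 beta cell markers was.

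**Figure D4:**
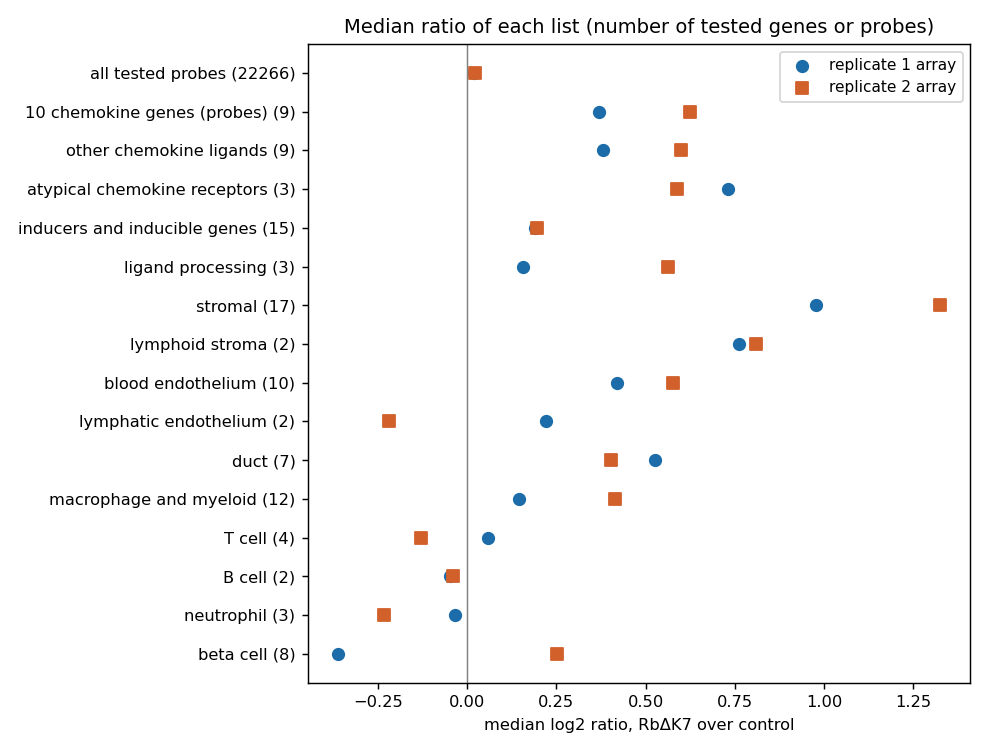
Median log2 ratio of RbΔK7 over control (x axis) for each gene list, with circles for the replicate 1 array and squares for the replicate 2 array and the number of tested genes or probes in brackets. The tested probes of the 10 chemokine genes lie at 0.37 and 0.62, between all tested probes (0.02 and 0.02) and the stromal markers (0.98 and 1.33). The acinar list (0.43 and -5.09) and lists with 1 tested gene are not drawn.

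The size of the ratios moved with the handling of background, and for 6 of the 9 tested probes the control channel was below background on at least 1 array. With Agilent's processed signals the mean ratio of Cxcl12 probe 2 was 2.06, against 0.78 as reported, that of Ccl19 probe 1 was 1.62, against 0.81, and that of Cxcl10 was 2.36, against 0.50, and limma called none of them. The plot of 3 probes under each processing gives their means and calls.

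**Figure D5:**
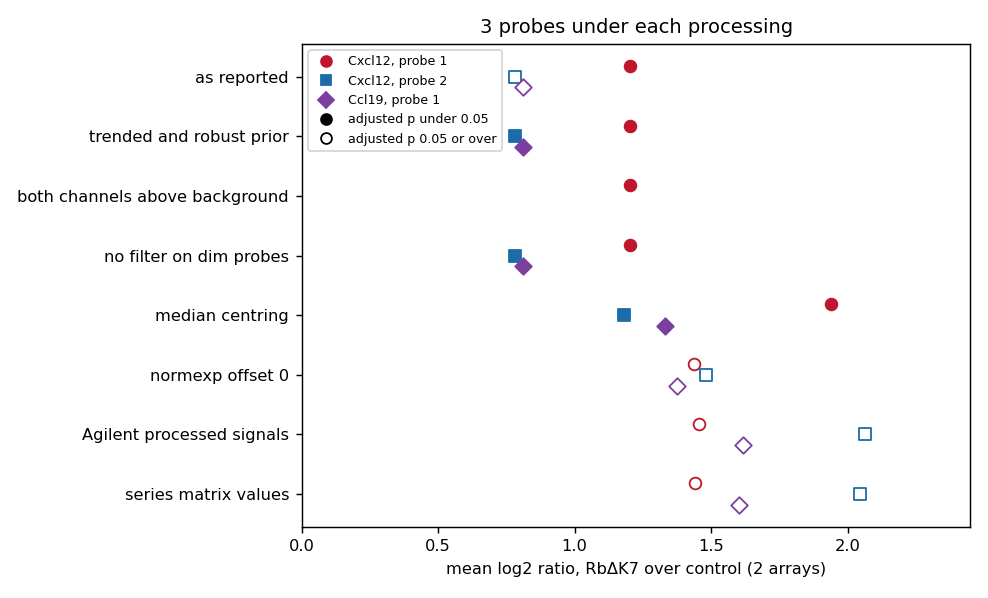
Mean log2 ratio of RbΔK7 over control on the 2 arrays (x axis) for Cxcl12 probe 1 (circles), Cxcl12 probe 2 (squares) and Ccl19 probe 1 (diamonds) under each processing, filled where limma's adjusted p was under 0.05. All means lie above 0, and Cxcl12 probe 1 runs from 1.20 to 1.94. The setting with both channels above background leave out the other 2 probes.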

How the data were processed

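Per the submitters' processing notes, spots were quantified in Agilent Feature Extraction 10.7.3.1. The deposited intensity values are mean signals, local background medians and processed signals per spot and channel, and the deposited log10 ratios are of processed red (Cy5, RbΔK7) over green (Cy3, control) signals, per the file headers, which place probes on mm9. The series matrix deposited by the authors equals these log10 ratios (largest difference 0).

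With limma 3.58.1 in R 4.3.3, signals were corrected by normexp (offset 50) and normalized within arrays by loess (span 0.3). Control spots and outlier spots (4 per array) were left out and spots of a probe averaged. Channel levels were further normalized between arrays (Aquantile). The offset draws ratios of dim probes towards 0. A probe was tested when at least 50% of its spots were well above background, in either channel, on each array. Ratios were tested against 0 with lmFit and eBayes, two-sided (1 residual degree of freedom, 4.90 from the prior), after a test on simulated data. The brightest tested probe stood for a listed gene. From each list the called genes and up to 4 tested genes of largest mean ratio with 1 sign were named, up to 2 from marker lists. The 10 genes and the lists were chosen with earlier results of these data known. Alternatives are given in the closing section.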

Additional observations from a re-analysis of the deposited data

How the results depend on the processing

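With 1 sample of each genotype per array and 2 arrays, the counts of calls depended on the processing. Of all tested probes 85 were called in the reported analysis and 1 of the 10 genes' probes. With Agilent's processed signals, with normexp at an offset of 0 and with the series matrix values, limma called 0 probes in all and 0 of the chemokine probes each time (2368, 2471 and 2355 probes, and 7 chemokine probes each, at an unadjusted p under 0.05). Median centring called 6735 probes and 3 of the chemokine probes, no filter on dim probes 355 and 3, and a trended, robust prior 564 and 3. The 3 were the 2 Cxcl12 probes and Ccl19 probe 1. Requiring both channels above background called 76 and 1. These calls under median centring carry a shift common to all probes: the tested probes themselves had median ratios of 0.39 and 0.84, and relative to the median of their means (0.62) Cxcl12 probe 1 was at 1.32, Cxcl9 at -0.13 and Cxcl10 at -0.07. Cxcl12 probe 1 was called in 4 of 7 alternatives. Only 3 of the 9 tested chemokine probes could be fitted with both channels above background, and the filters and the prior leave a mean as it is. With the processed signals, an offset of 0 and the series matrix values, the means of all 9 were above 0. Leaving out a replicate leaves 1 ratio and no test, and Cxcl9 was then -0.08 without replicate 2 and 0.40 without replicate 1. The reported test is itself paired, on the ratio within each array. The causes of these differences were not tested.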
